A study of Rattus norvegicus with 23 samples.

Results

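Tspo encodes the translocator protein, whose ligands are the PET tracers most used to image neuroinflammation. It was chosen by its pattern over the groups of this experiment, as was the set of genes most like it, so its own levels are given as a description with no test. Tspo is 1 gene of the 20301 in the deposited log2 table, and it was followed sample by sample over 23 samples of microglia. TSPO sits in the outer mitochondrial membrane and binds cholesterol and porphyrins. It lies next to the voltage-dependent anion channels, and diazepam-binding inhibitor is its endogenous ligand. In the brain it is found in microglia, astrocytes and vessel cells, and tracer binding is read in the clinic as a sign of reactive glia. Whether Tspo transcript follows inflammation or hypoxia-ischemia (HI) in the neonatal brain is the question that these groups address.

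The rats were 7-day-old Wistar pups of both sexes. The 6 Sham samples came from pups with a neck incision under isoflurane, for which no injection is listed. The 5 LPS samples came from pups that received 0.1 mg/kg lipopolysaccharide (LPS) intraperitoneally 4 h before the same sham surgery. The 6 NaCl/HI samples came from pups injected with saline, and the 6 LPS/HI samples from pups given the same LPS dose. Both HI groups underwent ligation of the left common carotid artery and 50 min of hypoxia at 8% oxygen. Microglia were collected with CD11b/c magnetic beads 24 h after the operation. A Sham or LPS sample was the entire brain of 1 pup, whereas an HI sample pooled the ipsilateral hemispheres of 2 pups, so that HI, the tissue taken and pooling cannot be told apart. In the same way LPS against Sham compares injected with uninjected pups. Bulk values also cannot tell fewer cells of a type from less RNA per cell.

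The values are rlog values, log2-scaled counts that draw weakly expressed genes toward their mean, from which the authors had removed 3 surrogate variables. The table holds no counts, and the depth behind each value is unknown. Library medians lay between 7.75 and 7.82. Of 12 listed microglial markers 11 were in the table, and P2ry12, Tmem119, Cx3cr1, Sall1 and Csf1r had group means of 12.10 or higher, whereas Siglech lay near -1.05 in every group. Bead selection takes every CD11b/c-positive cell, and the neutrophil genes S100a8 and S100a9 were present, with group means from 8.82 to 10.86. Removing surrogate variables leaves less spread among samples of a group, so p-values can come out too low.

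Tspo was lowest in Sham, higher in NaCl/HI, higher again in LPS/HI and highest in LPS. In Sham its log2 value was 9.84, 9.87, 9.92, 10.07, 9.59 and 9.77, with a mean of 9.84 ± 0.16 (SD, n = 6). LPS samples had 11.05, 11.17, 10.63, 11.24 and 10.62, with a mean of 10.94 ± 0.30 (SD, n = 5). Every LPS sample lay above every Sham sample, the nearest 2 being 0.546 apart. NaCl/HI samples had 10.35, 10.23, 10.48, 9.82, 10.11 and 9.95, and their mean was 10.16 ± 0.24 (SD, n = 6). In LPS/HI the values were 10.53, 10.55, 10.67, 10.87, 10.61 and 10.48, with a mean of 10.62 ± 0.14 (SD, n = 6). The NaCl/HI samples thus ran into the Sham range, while the LPS/HI samples lay above NaCl/HI and partly inside the LPS range.

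**Figure D1:**
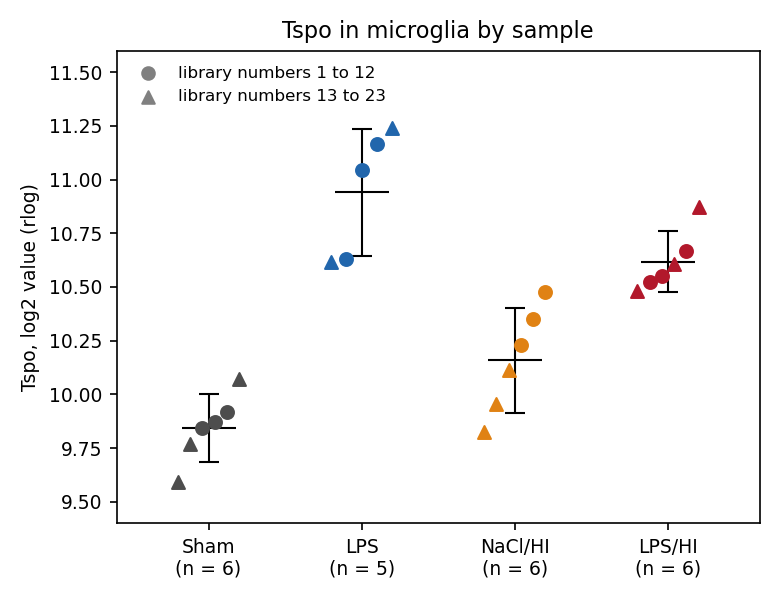
Tspo log2 value (rlog) on the y axis for each of the 23 samples by group on the x axis, with points for samples, horizontal bars for group means and error bars for SD. LPS samples sit between 10.62 and 11.24, above all Sham samples and all NaCl/HI samples. In NaCl/HI, library numbers 1 to 12 (circles) lie above numbers 13 to 23 (triangles).

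Relative to Sham, mean Tspo was 1.10 higher in LPS on the log2 scale, a 2.14-fold difference. The difference from Sham was 0.77 in LPS/HI (1.71-fold) and 0.31 in NaCl/HI (1.24-fold). All 6 LPS/HI samples were above all Sham samples. Of the 6 NaCl/HI samples, 4 were above every Sham sample and 2 were inside the Sham range, so these neighbours in the order overlapped. Without overlap and in the higher direction, 8.05% of all genes separated LPS from Sham, and 3.85% separated LPS/HI from Sham. These shares describe the table, and nothing is read from them about Tspo, which was picked for this pattern.

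Among the treated groups, LPS exceeded NaCl/HI by 0.78 (1.72-fold), with a gap of 0.142 between the nearest samples. A separation of this kind was seen for 4.79% of genes. LPS/HI exceeded NaCl/HI by 0.46 (1.38-fold), and the lowest LPS/HI sample was only 0.0077 above the highest NaCl/HI sample. Such separation occurred for 0.901% of genes. LPS/HI lay below LPS by 0.32 (1.25-fold), with 4 of its 6 samples below every LPS sample and 2 inside the LPS range. The SD within groups was 0.234, with 16 degrees of freedom pooled over the 4 groups.

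The difference that accompanied LPS was therefore 1.10 without HI and 0.46 with HI, which is -0.64 as a difference of differences. In turn, the difference that accompanied HI was 0.31 without LPS and -0.32 with LPS. No test was applied to either, since the pattern chose the gene. Sham pups had no listed injection, whereas NaCl/HI pups had saline, so an injection enters only the differences from Sham.

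Library numbers in the labels run from 1 to 23, with replicates 1 to 3 of every group in numbers 1 to 12. Within numbers 1 to 12 and 13 to 23 the LPS-Sham difference was 1.07 and 1.12, and the LPS/HI-Sham difference 0.71 and 0.84. Differences that involved NaCl/HI depended more on this split. NaCl/HI exceeded Sham by 0.48 in the first set and by 0.15 in the second, and LPS/HI exceeded NaCl/HI by 0.23 and 0.69. The mean of NaCl/HI was 10.35 in the first set and 9.96 in the second, whereas the means were 9.88 and 9.81 in Sham, 10.95 and 10.93 in LPS, and 10.58 and 10.66 in LPS/HI. When each library was left out in turn, LPS minus Sham lay between 1.02 and 1.18, and NaCl/HI minus Sham between 0.25 and 0.38.

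Differences between groups made up 81.7% of the variance of Tspo. Pearson r with Tspo was computed for 20137 genes over the 23 samples, which share group structure, the rlog transformation and the removal of surrogate variables. It had a median of -0.04 and reached 0.9 or more in 17 genes and -0.9 or less in 4. The 10 genes with the highest r were Tmco4, Tlr1, C3, Taldo1, Ifngr2, Nup133, Rpn2, Rdm1, Ctsz and Oat, with r from 0.96 down to 0.91. The next gene in this order had an r of 0.911, so the limit of 10 is a cut through nearly equal values. The 5 genes with the lowest r were Lyve1, Socs6, Smap2, Zfp945 and Ints6l, with r from -0.95 to -0.89.

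Tlr1 is a receptor for bacterial lipopeptides, and its r was 0.95. Its group means were 8.75 ± 0.07 in Sham, 9.70 ± 0.21 in LPS, 8.93 ± 0.18 in NaCl/HI and 9.30 ± 0.15 in LPS/HI (SD). C3 encodes the central complement component, with r = 0.94. Its level was 10.74, 10.97, 11.06, 11.11, 11.10 and 11.19 in Sham and 12.88, 12.91, 12.17, 12.77 and 12.01 in LPS. It ranged from 11.10 to 12.13 in NaCl/HI and from 12.04 to 12.56 in LPS/HI. As with Tspo, Sham and LPS did not overlap, and NaCl/HI replicate 4 reached down into the Sham range. Ifngr2, a chain of the interferon gamma receptor, had r = 0.93, and Ctsz, a lysosomal cathepsin, r = 0.92.

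Tmco4 encodes a transmembrane protein and had the highest r, 0.96. Its mean was 7.24 ± 0.08 in Sham, 7.67 ± 0.13 in LPS, 7.40 ± 0.13 in NaCl/HI and 7.54 ± 0.04 in LPS/HI (SD). Taldo1, the transaldolase of the pentose phosphate pathway, had r = 0.93. Oat is the mitochondrial ornithine aminotransferase, with r = 0.91. Nup133 belongs to the nuclear pore and Rpn2 to the complex that adds glycans to nascent proteins, and r was 0.92 for each.

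Lyve1 ran opposite to Tspo. It encodes a hyaluronan receptor of lymphatic endothelium and of macrophages at the borders of the brain. Sham samples had 13.21, 12.70, 12.90, 12.69, 13.12 and 13.03, and LPS samples 12.09, 12.03, 12.17, 11.85 and 12.39. All LPS values were below all Sham values, which is only a description, since Lyve1 was picked for its low r with Tspo. The range was 12.31 to 12.91 in NaCl/HI and 12.17 to 12.46 in LPS/HI. Of the other falling genes, Socs6 belongs to the suppressors of cytokine signalling, Smap2 acts on the Arf cycle and Ints6l on the Integrator complex.

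**Figure D2:**
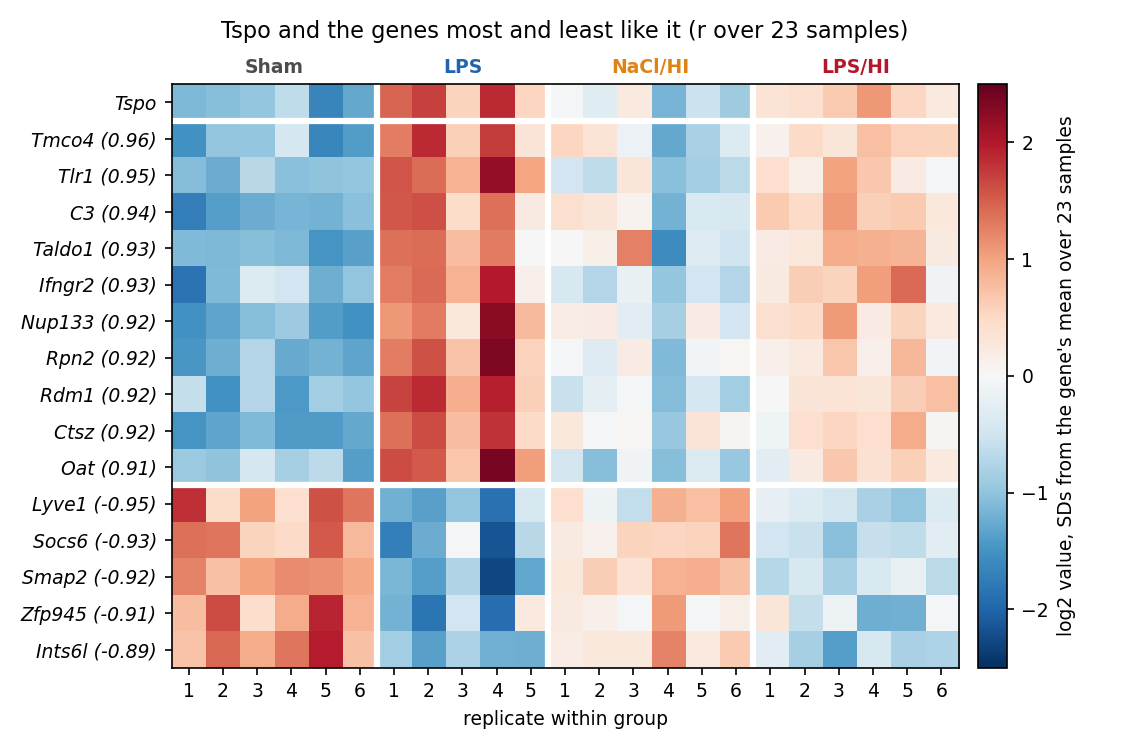
Each row is a gene and each column a sample, by group and replicate, and the colour gives the log2 value in SDs from that gene's mean over 23 samples. Numbers in brackets are Pearson r with Tspo. The 10 genes with the highest r are mostly reddest in LPS and bluest in Sham, and the 5 genes with the lowest r mostly show the reverse. Among the 10, NaCl/HI replicate 4 is pale or blue, and for Taldo1 it is the bluest sample.

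Much of this likeness came from the group means. After the group means were subtracted, r fell to 0.83 for Tmco4 and Taldo1, 0.74 for Tlr1 and C3, 0.57 for Rdm1 and -0.77 for Lyve1, with a median over all genes of -0.0012 and a 95th percentile of 0.51. The 5 genes with the highest within-group r were Wdr73 (0.88), Sh2d1b2 (0.85), Tmco4 (0.83), Taldo1 (0.83) and Eno1 (0.83). Eno1 encodes enolase of glycolysis, and its r over all samples was also 0.83. Wdr73 and Sh2d1b2 tracked Tspo within groups while their group means barely differed, and their r over all samples was 0.52 and 0.40. Tmco4 and Taldo1 are thus the members of both sets. Without Sham replicate 5 and LPS replicate 4, the samples farthest from the median of Tspo, r was 0.94 for Tmco4, 0.95 for Tlr1 and -0.93 for Lyve1. Of the 10 genes, 4 stayed among the 10 most like without Sham replicate 5 alone, 5 without LPS/HI replicate 1, and at least 7 without any other library.

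Because Tmco4 and Taldo1 shared Tspo's profile over and within groups, the 250 bases before their start are shown, from RefSeq on GRCr8, 5′ to 3′ on the strand of the gene. The Tmco4 window is chr5:156499819-156500068 on the plus strand and the Taldo1 window is chr1:205922946-205923195 on the plus strand. Capitals mark the GC box, GGGCGG, a motif bound by Sp factors.
Tmco4: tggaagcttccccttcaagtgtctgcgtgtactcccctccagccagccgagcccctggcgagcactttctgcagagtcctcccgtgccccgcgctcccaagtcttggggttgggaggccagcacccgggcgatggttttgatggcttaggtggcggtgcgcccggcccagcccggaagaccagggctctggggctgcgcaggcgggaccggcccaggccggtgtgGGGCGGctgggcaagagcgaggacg
Taldo1: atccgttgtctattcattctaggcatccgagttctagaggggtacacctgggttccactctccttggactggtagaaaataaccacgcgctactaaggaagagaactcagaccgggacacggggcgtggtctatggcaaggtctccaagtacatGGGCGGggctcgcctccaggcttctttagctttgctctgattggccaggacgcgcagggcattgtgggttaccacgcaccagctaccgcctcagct
Sp factors, AP-1 and ETS factors are described as regulators of Tspo. The motifs GGGCGG for the GC box, TGANTCA for AP-1 and CNGGAAGT for ETS were searched on both strands. Of the 10 genes of highest r, 9 had a window, and the GC box was in 6, the AP-1 motif in 0 and the ETS motif in 1. Of the 5 genes of lowest r, 4 had windows, and 2 held the GC box in at least 1 window, Ints6l in only 2 of its 6. It was also in 5 of the 8 TSPO partners with a window. Over 33360 different windows of this length the shares were 30.5%, 6.35% and 7.42%. These shares count windows, whereas a gene was counted if any of its windows matched. Matches describe letters in these windows and are not binding sites, and nothing is read from them about the regulation of Tspo. Rdm1 and Tspo were not among the windows.

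To place Tspo among the genes of its biology, 133 genes of 8 lists were compared between groups in 1 limma fit of all samples, with Benjamini-Hochberg adjustment over all 20301 genes. A gene was called at an adjusted p under 0.05. In LPS against Sham, 31 of the 133 were higher and 13 lower, beside 10.2% of all genes higher and 7.56% lower. Centring each library on its median changed this split to 35 higher and 6 lower. The median log2 difference was 0.03 over the lists and -0.01 over all genes. Without LPS replicate 2 the number called was 28. In LPS/HI against Sham, 13 were higher and 1 lower, beside 5.3% and 3.48% of all genes. Leaving out 1 library moved the 14 to 26 (LPS/HI replicate 1 left out), 22 (NaCl/HI replicate 4), 6 (LPS/HI replicate 2) and 7 (LPS/HI replicate 4 or 5). It was 8 without LPS/HI replicate 3 or Sham replicate 5, and 9 without Sham replicate 4 or 6.

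NaCl/HI against Sham gave 0 calls in either direction by limma, with 32 genes at an unadjusted p under 0.05 and 0 calls by the exact Wilcoxon test. Of all genes 0.00985% were higher and 0% lower. Without NaCl/HI replicate 4 the count was 12. LPS/HI against NaCl/HI also gave 0 limma calls, with 16 at an unadjusted p under 0.05, beside 0.153% and 0.0493% of all genes. It gave 1 without LPS/HI replicate 1. The exact Wilcoxon test gave 0 here as well. At these group sizes its smallest possible p passes adjustment only if many genes separate fully, so neither Wilcoxon 0 is evidence of no difference. In LPS against NaCl/HI, 14 genes were higher and 6 lower, beside 5.32% and 3.66% of all genes. The 20 became 11 without LPS replicate 1 or 2 and 9 without LPS replicate 4. None of the 133 was called with a fold above 2 in any comparison.

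The proteins that bind TSPO came first. Of 11 listed partners 10 were in the table, and the median log2 difference of LPS from Sham was 0.14. Dbi, the endogenous ligand, rose in LPS. Its level was 10.31, 10.49, 10.51, 10.43, 10.49 and 10.27 in Sham and 10.79, 11.01, 10.87, 11.02 and 10.84 in LPS. The groups did not overlap, and the difference was 0.49 ± 0.07 (SE, limma adjusted p = 2.4e-05). Dbi was also higher in LPS/HI than in Sham, by 0.26 ± 0.06 (SE, limma adjusted p = 0.0165). In NaCl/HI its difference from Sham was 0.05 ± 0.06 (SE). Both calls held under every alternative tried apart from a fold above 2, and r of Dbi with Tspo was 0.88.

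Slc25a4, an adenine nucleotide translocase, rose in LPS by 0.29 ± 0.07 (SE, limma adjusted p = 0.0081), and Vdac3, an anion channel, by 0.20 ± 0.05 (SE, limma adjusted p = 0.0135). The call of Vdac3 was lost without LPS replicate 4, where the adjusted p was 0.0522. Slc25a4 was also called in LPS/HI, by 0.24 ± 0.07 (SE, limma adjusted p = 0.034), but not without any one of Sham replicates 1, 4, 5 or 6 or LPS/HI replicates 2 to 5, where the adjusted p was 0.0523 to 0.0948, nor with the replicate block or by the exact Wilcoxon test. Vdac1, Vdac2 and Slc25a5 had differences of 0.13, 0.15 and 0.18 in LPS, with limma adjusted p from 0.0619 to 0.0819. Acbd3 and Prkar1a, a Golgi protein and the kinase subunit it carries, had differences of -0.07 and -0.05 in LPS, and Atad3a one of -0.0026.

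Tspoap1 encodes a protein that binds TSPO and has a role at synapses. It fell by 0.22 ± 0.07 in LPS (SE, limma adjusted p = 0.0361) and by 0.24 ± 0.07 in LPS/HI (SE, limma adjusted p = 0.0301). Its Sham values of 9.44 and 9.33 in replicates 1 and 2 stood above the other Sham values, and LPS samples with 9.11 and 9.12 lay inside the Sham range. The LPS call was lost without Sham replicate 1, 2 or 5 or LPS replicate 1, 2 or 3, with an adjusted p of 0.0505 to 0.0921, and also under median centring, with the replicate block and by the exact Wilcoxon test. The LPS/HI call was lost without Sham replicate 1 or 2 or LPS/HI replicate 2, 4 or 5, with 0.0574 to 0.073, and also with the replicate block and by the exact Wilcoxon test. The plot of partner differences shows all 10 genes.

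**Figure D3:**
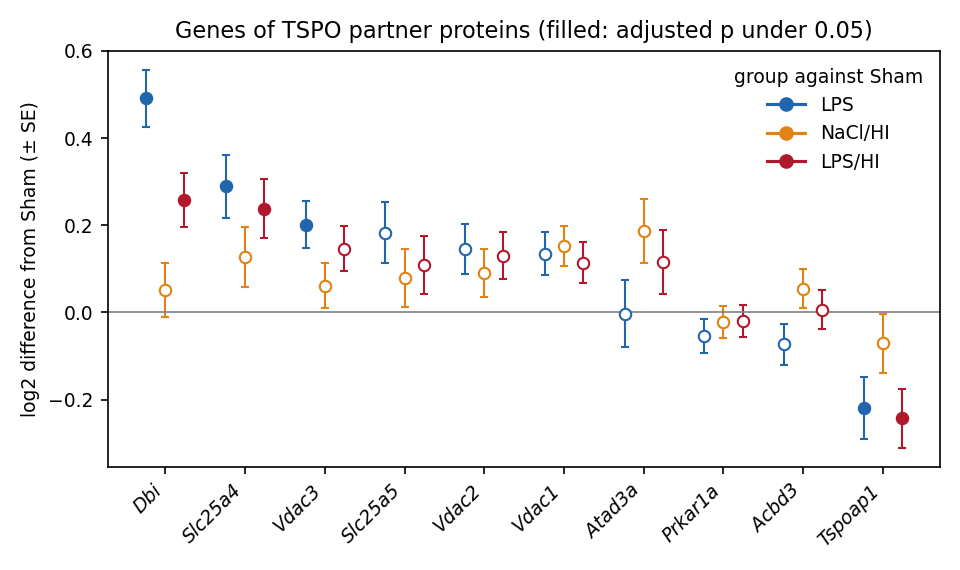
Log2 difference from Sham for the 10 genes of TSPO partner proteins in LPS (n = 5), NaCl/HI (n = 6) and LPS/HI (n = 6), with error bars for the limma SE. Filled points have a limma adjusted p under 0.05. Dbi reaches 0.49 in LPS, Tspoap1 lies below 0 in all 3 groups, and no NaCl/HI point is filled.

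NADPH oxidase NOX2 makes superoxide in phagocytes. All 8 listed genes were in the table, and 4 were higher in LPS and in LPS/HI than in Sham, beside 10.2% and 5.3% of all genes. Cyba, the membrane subunit p22phox, was 11.07, 11.10, 11.16, 11.01, 11.02 and 11.11 in Sham and 11.69, 11.68, 11.51, 11.62 and 11.44 in LPS. These groups were far apart, and Cyba rose by 0.51 ± 0.07 (SE, limma adjusted p = 1.9e-05). In LPS/HI it ranged from 11.13 to 11.54, and the rise was 0.30 ± 0.06 (SE, limma adjusted p = 0.0072). Rac2, the GTPase of the complex, rose by 0.35 ± 0.06 in LPS (SE, limma adjusted p = 0.0004) and by 0.26 ± 0.06 in LPS/HI (SE, limma adjusted p = 0.0098). Their r with Tspo was 0.88 and 0.84. The cytosolic subunits Ncf1 and Ncf4 rose in LPS by 0.26 ± 0.05 and 0.34 ± 0.10 (SE, limma adjusted p = 0.00093 and 0.0234). The Ncf4 call was lost without LPS replicates 1, 2, 3 or 4 or Sham replicate 5, with an adjusted p of 0.0501 to 0.0759, with the replicate block and by the exact Wilcoxon test. In LPS/HI Ncf4 rose by 0.45 ± 0.10 (SE, limma adjusted p = 0.0082), and Ncf1 by 0.16 ± 0.05 (SE, limma adjusted p = 0.0367). The Ncf1 call was lost without any one Sham replicate or any one of LPS/HI replicates 2 to 6, with an adjusted p of 0.051 to 0.0977, with the replicate block and under quantile normalization. In NaCl/HI the differences from Sham were 0.42 ± 0.10 for Ncf4, 0.22 ± 0.06 for Cyba, 0.19 ± 0.05 for Ncf1 and 0.12 ± 0.06 for Rac2 (SE, limma adjusted p from 0.101 to 0.348). Ncf4 in LPS less NaCl/HI was -0.09 ± 0.10 (SE, limma adjusted p = 0.66). Cybb, the catalytic subunit, differed from Sham by 0.08 ± 0.08 in LPS (SE, limma adjusted p = 0.57).

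TSPO has long been tied to the import of cholesterol for steroid synthesis. Of 17 listed genes of this pathway 15 were measured, and 6 were higher and 2 lower in LPS than in Sham, beside 10.2% and 7.56% of all genes. Srd5a1 and Srd5a3, reductases of the 5-alpha type, rose by 0.33 ± 0.07 and 0.29 ± 0.06 (SE, limma adjusted p = 0.0017 and 0.0019). Fdxr, which passes electrons to mitochondrial cytochromes P450, rose by 0.28 ± 0.07 (SE, limma adjusted p = 0.0056), and Hsd17b10, a mitochondrial dehydrogenase, by 0.23 ± 0.06 (SE, limma adjusted p = 0.007). Star, the cholesterol carrier that acts with TSPO in steroid-making cells, differed by -0.06 ± 0.07 (SE, limma adjusted p = 0.57). Cyp11a1, which takes the first step to pregnenolone, had group means between 2.98 and 3.08, among weakly expressed genes. In LPS/HI against Sham 0 of the 15 were called, beside 5.3% of all genes higher and 3.48% lower.

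Haem and porphyrin genes followed. All 21 were measured, and 8 rose in LPS, beside 10.2% of all genes. Blvra, which reduces biliverdin, rose by 0.28 ± 0.06 (SE, limma adjusted p = 0.003), and Slc25a39, a mitochondrial carrier, by 0.25 ± 0.05 (SE, limma adjusted p = 0.0029). Fech, the enzyme that inserts iron into haem, rose by 0.23 ± 0.05 (SE, limma adjusted p = 0.0041). These 3 calls held under every alternative tried apart from a fold above 2. In LPS/HI 1 of the 21 was called, Blvra at 0.23 ± 0.06 (SE, limma adjusted p = 0.0209), a share of 4.76% beside 5.3% of all genes higher and 3.48% lower. Hmox1, the inducible haem oxygenase, differed by -0.22 ± 0.11 in LPS (SE, limma adjusted p = 0.18).

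Other proteins of the outer mitochondrial membrane were compared because TSPO resides there. Of 28 listed, 27 were in the table, and 4 were higher and 1 lower in LPS. These 5 are 18.5% of the list, near the share of all genes, of which 10.2% were higher and 7.56% lower. Samm50 and Mtx1 of the sorting machinery rose by 0.30 ± 0.05 and 0.28 ± 0.07 (SE, limma adjusted p = 0.00061 and 0.0054), and the import receptor Tomm22 by 0.27 ± 0.06 (SE, limma adjusted p = 0.0025). Bcl2l1, an inhibitor of apoptosis, fell by 0.22 ± 0.06 (SE, limma adjusted p = 0.0216). Its call was lost without Sham replicate 6 or LPS replicate 4 or 5, with an adjusted p of 0.0505 to 0.0738, and with the replicate block. The median difference of the 27 was 0.03, beside -0.01 for all genes.

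Factors and kinases described upstream of Tspo made up 22 measured genes, of which 3 were higher and 4 lower in LPS, beside 10.2% and 7.56% of all genes. Spi1, which encodes PU.1, rose by 0.18 ± 0.05 (SE, limma adjusted p = 0.0112), and Mapk3, the kinase ERK1, by 0.22 ± 0.05 (SE, limma adjusted p = 0.0036). Fosb of the AP-1 family fell by 0.48 ± 0.11 (SE, limma adjusted p = 0.0059). In LPS/HI 1 of the 22 was called, Stat3 at 0.16 ± 0.05 (SE, limma adjusted p = 0.0491), a share of 4.55% beside 5.3% of all genes higher and 3.48% lower. Of the 23 fits that left out 1 library, 16 lost this call, with an adjusted p up to 0.122. It was kept without Sham replicate 2, 3 or 4, LPS replicate 5, NaCl/HI replicate 3 or 4 or LPS/HI replicate 1. The call was also lost without the variance trend, with robust variances, the replicate block or the set of library numbers as a factor, under median centring and quantile normalization, and by the exact Wilcoxon test.

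The list of other targets for which neuroinflammation tracers have been made held 16 genes, all measured. None was called higher in LPS than in Sham by limma, beside 10.2% of all genes, and 4 were lower, beside 7.56%. Their r with Tspo ran from -0.63 to 0.38, inside the range of -0.65 to 0.74 between the 5th and 95th percentiles of all genes. P2rx7, the purinergic receptor, was 11.79, 11.66, 11.68, 12.05, 11.86 and 11.61 in Sham and 11.48, 11.19, 11.52, 11.39 and 11.11 in LPS. P2rx7 thus fell by 0.44 ± 0.09 (SE, limma adjusted p = 0.0018). In NaCl/HI it ranged from 11.55 to 11.99. Ptgs1, cyclooxygenase 1, fell by 0.33 ± 0.09 (SE, limma adjusted p = 0.0151), a call lost without LPS replicate 4 with an adjusted p of 0.0547 and by the exact Wilcoxon test. Cx3cr1, the fractalkine receptor, fell by 0.17 ± 0.05 (SE, limma adjusted p = 0.0308). That call was lost without Sham replicates 1, 4 or 5 or LPS replicates 1, 2 or 5, with an adjusted p of 0.0513 to 0.0922, and under median centring and quantile normalization. Csf1r differed by 0.02 ± 0.07 (SE, limma adjusted p = 0.9) and Cnr2, the cannabinoid receptor CB2, by -0.08 ± 0.08 (SE, limma adjusted p = 0.54). Mmp9, a gelatinase that is also a neutrophil marker, was higher in LPS/HI than in Sham by 0.75 ± 0.22 (SE, limma adjusted p = 0.0369). The call was lost without Sham replicate 2, 4, 5 or 6 or LPS/HI replicate 2, 3, 4 or 5, with an adjusted p of 0.0509 to 0.0935, with robust variances and with the replicate block. Mmp9 was also the 1 listed gene called higher in LPS/HI than in LPS, beside 1.22% of all genes, with 0 lower beside 0.719%. Its difference there was 0.91 ± 0.23 (SE, limma adjusted p = 0.0452). It kept that call only without Sham replicate 1 or 5, LPS replicate 1, NaCl/HI replicate 2, 3 or 4 or LPS/HI replicate 6, and the adjusted p reached 0.153 without another library. It was also lost without the variance trend, with robust variances, the replicate block or quantile normalization, and by the exact Wilcoxon test, which called no listed gene in that comparison.

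Of 14 measured activation markers used in tissue sections, 3 were higher and 1 lower in LPS, beside 10.2% and 7.56% of all genes, and their r with Tspo ran from -0.69 for Mrc1 to 0.74 for Tyrobp. Tyrobp, the adaptor DAP12, rose by 0.25 ± 0.06 (SE, limma adjusted p = 0.0034). Cd86, a costimulatory ligand, rose by 0.23 ± 0.07 (SE, limma adjusted p = 0.0196), with an adjusted p of 0.0552 without LPS replicate 2 and the call also lost under quantile normalization. Cd14, the LPS coreceptor, rose by 0.48 ± 0.15 in LPS (SE, limma adjusted p = 0.0332), and by 0.58 ± 0.14 in LPS/HI (SE, limma adjusted p = 0.0184). The LPS call was lost without Sham replicates 1, 2, 3 or 5 or LPS replicates 1, 2 or 4, with an adjusted p of 0.053 to 0.113, and with robust variances, and both Cd14 calls were lost by the exact Wilcoxon test. Aif1, which encodes Iba1, was between 13.54 and 13.75 in Sham and between 13.64 and 13.79 in LPS, ranges that overlapped. Its difference was 0.10 ± 0.05 (SE, limma adjusted p = 0.17). In LPS against NaCl/HI 2 of the 14 were higher and 2 lower, beside 5.32% and 3.66% of all genes. Lgals3, galectin-3, was among the lower, by 0.89 ± 0.28 (SE, limma adjusted p = 0.0467). Lgals3 lost this call in 18 of 23 fits that left out 1 library, with an adjusted p up to 0.124, and kept it without Sham replicate 5, LPS replicate 3, NaCl/HI replicate 4 or LPS/HI replicate 1 or 6. The call was also lost without the variance trend, with robust variances, with only the groups compared and by the exact Wilcoxon test, which called no listed gene in this comparison. Lgals3 was 1.23 ± 0.26 higher in NaCl/HI than in Sham, which did not pass (SE, limma adjusted p = 0.0837).

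**Figure D4:**
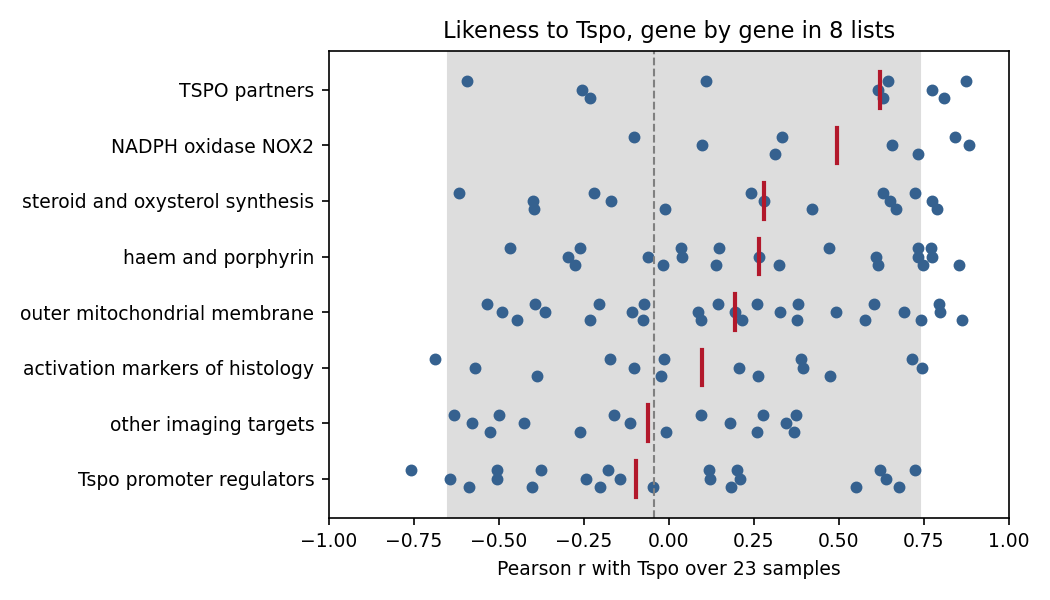
Pearson r with Tspo over 23 samples (x axis) for each measured gene of 8 lists (y axis), with red bars for list medians, a dashed line for the median of all genes and grey for the range from their 5th to 95th percentile. The median is 0.62 for TSPO partners and 0.49 for NOX2, and -0.06 for other imaging targets.

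The difference that accompanied LPS with HI, less that without HI, was tested for the listed genes as an interaction. It was negative for Cyba at -0.42 ± 0.09 (SE, limma adjusted p = 0.0316), Ncf1 at -0.29 ± 0.07 (SE, limma adjusted p = 0.0465) and Samm50 at -0.31 ± 0.08 (SE, limma adjusted p = 0.0489). These 3 of 133 stood beside 0.719% of all genes called lower and 0.365% called higher. All 3 adjusted p-values were near the threshold. Only the LPS difference without HI compares injected with uninjected pups, so the injection cannot be told apart from the interaction. Cyba lost the call in 11 of 23 fits that left out 1 library, with an adjusted p up to 0.0726, and in each of these fits 0 of the 133 genes were called. The libraries left out were Sham replicates 2 and 4, LPS replicates 1, 2 and 4, NaCl/HI replicates 1, 2 and 5, and LPS/HI replicates 2, 4 and 6. Ncf1 kept the call only without LPS replicate 5, NaCl/HI replicate 4 or LPS/HI replicate 5, with an adjusted p up to 0.102 otherwise. Samm50 kept it only without LPS replicate 3 or 5, NaCl/HI replicate 4 or LPS/HI replicate 3, with an adjusted p up to 0.116 otherwise. All 3 calls were also lost with the replicate block, and those of Ncf1 and Samm50 without the variance trend, with the set of library numbers as a factor and under quantile normalization. Without NaCl/HI replicate 4, 7 listed genes were called.

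Cell type markers are given beside Tspo, and their counts can be read against 10.2% of all genes higher and 7.56% lower in LPS than in Sham, and 5.3% higher in LPS/HI. Over 11 microglial markers the mean log2 value per sample was 11.76 to 12.07 in Sham, 11.53 to 11.79 in LPS, 11.75 to 11.94 in NaCl/HI and 11.67 to 11.94 in LPS/HI. In LPS 6 of 11 were called lower than in Sham and 0 higher, Sall1 among them by -0.25 ± 0.05 (SE, limma adjusted p = 0.0023), and r of this mean with Tspo was -0.71. The 8 markers of border-associated macrophages, Lyve1 included, had means of 10.99 to 11.79 in Sham and 10.86 to 11.25 in LPS, and r was -0.60. Of these, Cbr2 went the other way from Lyve1, with a rise of 0.18 ± 0.04 in LPS (SE, limma adjusted p = 0.0052). The 7 astrocyte markers had means of 10.58 to 11.03 in Sham and 10.83 to 11.19 in LPS, with r = 0.60, and 2 of the 7, Aldh1l1 and Aldoc, were called higher in LPS. For the 13 neutrophil markers the means were 5.72 to 6.16 in Sham, 5.50 to 5.99 in LPS, 5.53 to 6.14 in NaCl/HI and 5.93 to 6.82 in LPS/HI, and r was 0.15. In LPS/HI 5 of the 13 were called higher than in Sham. The 8 monocyte markers had means of 8.22 to 8.65 in Sham and 8.54 to 8.81 in LPS, and r of the mean was 0.36. Their own r ran from -0.70 for Ms4a4c to 0.87 for F10, with a median of 0.12. In LPS 2 of the 8 were called higher than in Sham. Plac8 rose by 1.17 ± 0.13 and F10 by 0.47 ± 0.08 (SE, limma adjusted p = 2.9e-06 and 0.00028), whereas Ccr2, the defining receptor of blood monocytes, was at 7.46 ± 0.15 in Sham and 7.28 ± 0.19 in LPS (SD). The 9 endothelial markers had means of 10.73 to 11.03 in Sham and 10.61 to 10.88 in LPS, with 1 called higher and 3 lower, and r was -0.27. For the 9 markers of mural cells and fibroblasts r was 0.01. Of these, 4 were higher in LPS/HI than in Sham, where their means were 8.98 to 9.21 beside 8.77 to 8.96. Of the 7 neuronal markers 3 were lower in LPS than in Sham, and r of their mean was -0.54. The part of other cells in the level of Tspo was not tested.

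In gene order on the GRCr8 assembly, Mcat, Bik and Ttll1 lie on one side of Tspo and Ttll12, Scube1 and Mpped1 on the other. Their differences in LPS against Sham had limma adjusted p from 0.15 to 0.72, so 0 of 6 were called, beside 10.2% of all genes higher and 7.56% lower. The largest difference was 0.15 ± 0.07 (SE) for Mcat, a mitochondrial acyltransferase.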

How the data were processed

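RNA of CD11b/c-selected microglia was sequenced, and titles in the labels gave the groups. The authors checked reads with FastQC 0.11.9 and MultiQC 1.14, quantified them with kallisto 0.48.0 on mRatBN7.2, built counts with DESeq2, left out genes with few counts and added up protein-coding genes that share a symbol. They then applied rlog and removed 3 surrogate variables with sva and limma. The deposited values are the resulting log2 values, 1 per gene and sample. No counts were used, so the depth of a sample and its counting error are unknown, and no count test was run. Of the 20301 symbols, 18625 were in the RefSeq gene table, whose assembly is GRCr8 and which gave only names and the order of neighbouring genes.

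Around the 4 group means, the 23 samples vary in 16 dimensions rather than 19. The limma fit (R 4.3.3, limma 3.58.1, eBayes with a variance trend) used all samples, 4 group means and 16 residual degrees of freedom in place of 19. It was tested on simulated data. Adjustment was by Benjamini-Hochberg over all genes, no gene was filtered out, and the threshold was an adjusted p of 0.05. Samples are labelled as biological replicates, and p-values measure the spread between these samples. Likeness was Pearson r on the log2 values (Python 3.11.15, numpy 2.4.6, pandas 2.3.3, figures with matplotlib 3.10.9). It left out 163 genes whose values equal those of another gene in every library. Promoter windows, with their GRCr8 coordinates, came from the RefSeq promoter table and were counted once where identical, which left 33360 of 33469.

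The members, the lists and the tests were chosen with earlier results of these data known. The genes named are Tspo, the 10 highest and 5 lowest in r, the 5 highest in r within groups, all measured TSPO partners, and of each other list up to 4 called members with the smallest p. The remaining genes named, among them Star, Cyp11a1, Cybb, Hmox1, Csf1r, Cnr2, Aif1, the cell type markers and the neighbours, were picked as defining genes after their values were seen. Tspo2, Hsd3b1, Hsd3b2, Tomm6, Fcrls, Chil3, Cldn5 and Ppbp were not analysed. Results of some single genes are left out of the text. Alternatives were 19 degrees of freedom, no variance trend, robust variances, a replicate block, the set of library numbers (1 to 12 or 13 to 23) as a factor, median centring, only the groups compared, no genes of the lowest 25%, quantile normalization, a fold above 2, the exact Wilcoxon test and each library left out. For likeness they were rank correlation, deviations from group means, each set of library numbers and leaving out the farthest samples.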

Additional observations from a re-analysis of the deposited data

Results flagged for a closer look

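Values of 26 genes (Tspo, the 15 genes of highest and lowest r and the 10 TSPO partners) were checked for a sample far from the rest of its group, in 104 groups of values, and 4 were found, where chance gives about 1 in 20 groups. NaCl/HI replicate 4 was low for Ctsz at 13.58, with the next sample at 13.84, and for Atad3a at 9.78, with the next at 10.07. The same sample was high for Zfp945 at 7.54, with the next at 7.41. Sham replicate 6 was low for Vdac2 at 11.84, with the next at 11.96. No group of Tspo values held such a sample.

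The difference of LPS/HI from NaCl/HI was smaller than that of LPS from Sham for Cyba by -0.42 (SE 0.091, limma adjusted p = 0.0316), Ncf1 by -0.29 (SE 0.069, limma adjusted p = 0.0465) and Samm50 by -0.31 (SE 0.076, limma adjusted p = 0.0489). Of 31 alternatives, 12 lost the call for Cyba, 24 for Ncf1 and 23 for Samm50, the replicate block among them for all 3.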

How the results depend on the processing

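For Tspo, the differences without 1 library ran from 1.02 to 1.18 for LPS minus Sham, 0.72 to 0.82 for LPS/HI minus Sham, 0.39 to 0.52 for LPS/HI minus NaCl/HI, 0.71 to 0.86 for LPS minus NaCl/HI and -0.40 to -0.25 for LPS/HI minus LPS. The list of genes most like Tspo depended on the setting. Of its 10 genes, 3 remained by Spearman rho, 2 after subtraction of group means, 2 in library numbers 1 to 12, 4 in numbers 13 to 23, 5 without the 2 samples farthest from the median, 6 with the replicate block, and 4 to 10 without 1 library.

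Counts of listed genes called (44 in LPS against Sham, 0 in NaCl/HI against Sham, 14 in LPS/HI against Sham, 1 in LPS/HI against LPS, 0 in LPS/HI against NaCl/HI, 20 in LPS against NaCl/HI and 3 in the interaction) also moved, and the cause was not tested. With a fold above 2 they were 0 throughout. With 19 residual degrees of freedom they were 4 in NaCl/HI against Sham, 29 in LPS/HI against Sham, 6 in LPS/HI against LPS and 2 in LPS/HI against NaCl/HI. With only the 2 groups compared they were 30 in LPS/HI against Sham, 4 in LPS/HI against LPS and 1 in LPS/HI against NaCl/HI. With the replicate block they were 32 in LPS against Sham, 6 in LPS/HI against Sham, 8 in LPS against NaCl/HI, and 0 in LPS/HI against LPS and in the interaction. With the set of library numbers as a factor, 1 was called in NaCl/HI against Sham and 1 in the interaction. The interaction also gave 1 without the variance trend and 1 with quantile normalization. LPS/HI against LPS gave 5 with median centring (1 higher, 4 lower) and 0 without the variance trend, with robust variances, with quantile normalization and by the exact Wilcoxon test, and LPS against NaCl/HI gave 0 by the exact Wilcoxon test. At these group sizes the smallest p of that test passes adjustment only if many genes separate fully. Its losses in these comparisons therefore say nothing of single genes. Without 1 library the counts ran from 28 to 47 in LPS against Sham, 0 to 12 in NaCl/HI against Sham, 6 to 26 in LPS/HI against Sham, 0 to 2 in LPS/HI against LPS, 0 to 1 in LPS/HI against NaCl/HI, 9 to 23 in LPS against NaCl/HI and 0 to 7 in the interaction. For single named genes 1733 repeats kept the call, 274 lost it and 0 reversed. This tally leaves out the fold above 2, under which every such call was lost.

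Replicate numbers showed no pairing in the deposited values: of 33 same-number pairs 9 had deviations that correlated over 0.1, with a median of -0.030 beside 0.0059 for other pairs. The removal of surrogate variables can take out variation that such pairs share, so pairing in the experiment cannot be told from these values. Unknown depth limits what can be said of weakly expressed genes.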
